A study of Mus musculus with 16 samples.

Results

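The 9 genes Mbp, Mog, Mag, Mobp, Cnp, Cldn11, Ermn, Opalin and Aspa mark myelin and mature oligodendrocytes, and their expression was followed in mouse somatosensory cortex after sleep disruption (SD). They were taken by name from the 24421 genes of the deposited tables, in which each of the 9 was found. RNA was sequenced from C57BL/6 wild-type (WT) mice and from AcPb-/- mice, homozygous for loss of the neuron-specific isoform of the IL1 receptor accessory protein and bred for 5 to 7 generations. The labels describe male mice of 2 to 3 months under a 12 h light and 12 h dark cycle. SD mice were kept awake by gentle handling for 8 h, from zeitgeber time (ZT) 20 to ZT4, and control (CTL) mice were left undisturbed. All cortices were collected at ZT4. The tables hold 12 libraries, 3 in each of the groups CTL-WT, SD-WT, CTL-AcPbKO and SD-AcPbKO, and 4 of the 16 labelled samples have no column in them and were not analysed here. The AcPb deletion is carried throughout the body, so it is not confined to the cortex or to oligodendrocytes.

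Oligodendrocytes wrap axons in myelin, a multilayered membrane that insulates them and speeds conduction. Myelin basic protein (Mbp) and Mobp are small basic proteins that hold the cytoplasmic faces of compact myelin together, and their mRNAs are carried out into the cell processes. Cnp, a cyclic nucleotide phosphodiesterase, belongs to the uncompacted channels, Mag to the membrane facing the axon, Mog to the outermost surface, and Cldn11 forms the tight junctions between the layers. Ermn encodes a protein of the actin cytoskeleton and Opalin a membrane glycoprotein of mature oligodendrocytes, and Aspa encodes the enzyme that splits N-acetylaspartate. The transcription factors MYRF and SOX10 are known activators of such genes.

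The promoters of 4 members are shown, of Cnp and Opalin because they were lower with SD in both genotypes, and of Mobp and Ermn because they were past the threshold in neither. RefSeq promoters (GRCm38.p6, 250 bases before to 50 after the start of the gene, 5′ to 3′ on the strand of the gene) were found for 8 of the 9 members, all but Mbp. Capitals mark matches to the letters searched. These were CTGGCAC, a motif of MYRF. They were also ACAAAG, and with it the like ACAATG, motifs of SOX factors, and CAGCTG, an E-box, all on both strands. TATAAA, the TATA box, was searched on the strand of the gene.
Cnp, chr11:100574689-100574988, plus strand: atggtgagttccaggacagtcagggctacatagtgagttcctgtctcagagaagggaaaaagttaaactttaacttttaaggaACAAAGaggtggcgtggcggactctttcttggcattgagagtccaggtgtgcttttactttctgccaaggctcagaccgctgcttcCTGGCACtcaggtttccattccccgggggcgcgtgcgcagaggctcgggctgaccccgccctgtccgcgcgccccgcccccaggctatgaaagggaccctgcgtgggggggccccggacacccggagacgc
Opalin, chr19:41077064-41077363, minus strand: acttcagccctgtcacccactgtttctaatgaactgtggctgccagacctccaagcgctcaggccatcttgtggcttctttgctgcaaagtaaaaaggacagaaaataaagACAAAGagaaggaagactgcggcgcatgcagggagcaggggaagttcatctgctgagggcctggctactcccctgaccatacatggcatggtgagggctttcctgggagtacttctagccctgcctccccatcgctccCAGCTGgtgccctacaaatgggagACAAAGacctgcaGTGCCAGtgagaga
Mobp, chr9:120149492-120149791, plus strand: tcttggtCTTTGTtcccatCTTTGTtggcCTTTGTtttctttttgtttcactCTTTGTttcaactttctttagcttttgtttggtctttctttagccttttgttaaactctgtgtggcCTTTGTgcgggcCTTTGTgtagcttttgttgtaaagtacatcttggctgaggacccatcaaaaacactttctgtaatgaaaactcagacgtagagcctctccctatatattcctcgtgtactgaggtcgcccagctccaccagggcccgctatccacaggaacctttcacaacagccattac
Ermn, chr2:58052815-58053114, minus strand: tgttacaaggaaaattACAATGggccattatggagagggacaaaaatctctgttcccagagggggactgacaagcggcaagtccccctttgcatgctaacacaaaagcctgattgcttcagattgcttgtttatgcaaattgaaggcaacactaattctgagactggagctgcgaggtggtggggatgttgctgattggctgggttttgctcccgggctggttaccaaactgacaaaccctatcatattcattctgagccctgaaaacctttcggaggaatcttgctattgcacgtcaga

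Positions are those of the first base of a match, with upstream bases negative and no 0. Cnp held CTGGCAC at -81 and ACAAAG at -167, and Opalin held CTGGCAC at 37, ACAAAG at -139 and 24, and CAGCTG at -1. Mobp held 6 matches to ACAAAG, between -243 and -120, and Ermn 1 match to ACAATG, at -234. No match overlapped another in these promoters. Of the 32851 RefSeq promoters of this length, 5.01% held CTGGCAC, 18.7% ACAAAG, 12.6% ACAATG, 16.3% CAGCTG and 8.32% TATAAA. Of the promoters not shown, 2 of the 3 of Mag held CTGGCAC and ACAAAG, that of Aspa held CAGCTG and TATAAA, and those of Mog and Cldn11 held none of these letters. A match describes the sequence and does not show that a factor binds there.

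On GRCm38 (mm10) with GENCODE M21, all 9 members are protein-coding. Mbp (ENSMUSG00000041607) lies on chromosome 18 from 82475146 to 82585637 on the plus strand, Mog (ENSMUSG00000076439) on chromosome 17 from 37010743 to 37023398 on the minus strand, and Mag (ENSMUSG00000036634) on chromosome 7 from 30899176 to 30914873 on the minus strand. Mobp (ENSMUSG00000032517) lies on chromosome 9 from 120149707 to 120181484, Cnp (ENSMUSG00000006782) on chromosome 11 from 100574904 to 100591729 and Cldn11 (ENSMUSG00000037625) on chromosome 3 from 31149920 to 31164324, all on the plus strand. Ermn (ENSMUSG00000026830) lies on chromosome 2 from 58045113 to 58052864, Opalin (ENSMUSG00000050121) on chromosome 19 from 41061710 to 41077113 and Aspa (ENSMUSG00000020774) on chromosome 11 from 73304992 to 73329596, all on the minus strand. The genes thus lie on 8 chromosomes, and only Cnp and Aspa share one. None of their exon stretches of 100 bases occurs in another gene (0% for each member). Mobp overlaps exons of the predicted gene Gm38642 on its own strand, so reads there are uncertain, and Cnp and Ermn overlap exons of Dnajc7 and Galnt5 on the other strand.

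Reads assigned to genes numbered 26504840 to 41615582 in the 6 control libraries and 58770286 to 71857505 in the 6 SD libraries, so that depth and SD cannot be told apart. The 9 members together took 0.0826% to 0.213% of the reads of a library. Although all mice were labelled male, 4 control libraries (CTL-WT replicates 02 and 03, CTL-AcPbKO replicates 04 and 05) had 25352 to 39358 reads of Xist, the RNA of an inactive X chromosome, and at most 2 reads of Y-linked genes. The other 8 libraries had at most 13 Xist reads and 5105 to 10593 Y-linked reads. The 4 libraries go against their labels and are all controls. The SD results for the members and their ratios are therefore also given with a term for these libraries or without them. Those for the gene lists are also given with the term. The total Il1rap count, 1476 to 2062 normalized counts over the 12 libraries, sums all isoforms and does not check the deletion. Nothing in the labels says whether replicates were collected together, so p-values measure only the spread between these libraries.

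The members differed widely in abundance. Per kilobase of exon, mean normalized counts in CTL-WT were 6813 ± 815 for Mbp (± standard deviation, n = 3, as for each mean that follows), 2558 ± 576 for Cnp, 1780.3 ± 341 for Cldn11, 1282 ± 105 for Mag, 1054 ± 314 for Mobp and 955 ± 160.0 for Mog. The lowest were Ermn with 386 ± 49.1, Opalin with 178 ± 34.6 and Aspa with 82.9 ± 6.44. In CTL-WT the ranges of neighbouring genes in this order overlapped only between Mag and Mobp and between Mobp and Mog. The same order was seen in SD-WT and SD-AcPbKO, and in CTL-AcPbKO Mog and Mobp changed places, with overlapping ranges. Mbp was highest and Aspa lowest per kilobase in all 4 groups. The lengths joined all annotated exons, 4072 bases for Mag and 6849 for Mobp, whose longest transcripts have 2434 and 3286 bases. For Cldn11 both lengths are 1870 bases, so the order of Cldn11, Mag and Mobp depends on the length used. After SD the gap between Mbp and Cnp was wider, with 6806 ± 1309.7 against 1369 ± 36.8 normalized counts per kilobase in SD-WT.

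In WT mice, 6 of the 9 members were downregulated with SD. Opalin and Cnp fell most, followed by Aspa, Cldn11, Mog and Mag, whereas Mbp, Mobp and Ermn did not pass the threshold. In the values that follow, counts are normalized over all 12 libraries and replicates stand in the order 01, 02 and 03 for CTL-WT and 01, 02 and 04 for SD-WT. Fold changes come from limma on the deposited 2-group table, as log2(normalized count + 1), with Benjamini-Hochberg adjustment across the 20417 genes tested and a threshold of 0.05. In that comparison 25.4% of all genes tested were past the threshold, 12.2% as lower and 13.2% as higher with SD. The median log2 fold change was -0.73 over the members and -0.0015 over all genes with a mean of at least 10 normalized counts. In bulk tissue, fewer oligodendrocytes and less RNA per oligodendrocyte cannot be told apart.

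Cnp had 11727, 8148 and 8049.9 normalized counts in CTL-WT and 4829, 5039 and 5079 in SD-WT (log2 fold change -0.88, standard error 0.12, adjusted p = 0.00113). Opalin had 643, 461 and 473 in CTL-WT and 263, 271 and 207 in SD-WT (log2 fold change -1.08, standard error 0.15, adjusted p = 0.00114). For both genes every SD library lay below every control, and the 3 SD libraries of Cnp differed by only 1.05-fold from lowest to highest. Aspa had 519, 449 and 512 in CTL-WT and 277, 295 and 294 in SD-WT (log2 fold change -0.77, standard error 0.10, adjusted p = 0.000788). Cldn11, the tight junction protein, had 4019, 3206 and 2763 in CTL-WT and 1822, 2061 and 2048 in SD-WT (log2 fold change -0.74, standard error 0.12, adjusted p = 0.00201). Aspa and Cldn11 also showed no overlap between groups, and CTL-WT replicate 01 was the highest library for each.

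Among the surface proteins, Mog had 1941, 1496 and 1445 normalized counts in CTL-WT and 900.4, 1106 and 927 in SD-WT (log2 fold change -0.73, standard error 0.12, adjusted p = 0.00224). Mag had 5706, 4903 and 5056 in CTL-WT and 3609.6, 4455 and 3095 in SD-WT (log2 fold change -0.50, standard error 0.12, adjusted p = 0.0112), the smallest change of the 6. The groups did not overlap for either gene. Over all genes tested, 19.7% were lower in every SD library than in every control, against 6 of the 9 members.

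The basic proteins of compact myelin and ermin did not pass the threshold. Mbp had 65277, 56052 and 51765 normalized counts in CTL-WT and 59189, 67882 and 45860.2 in SD-WT (log2 fold change -0.014, standard error 0.14, adjusted p = 0.951), so the highest and the lowest of the 6 libraries were both SD libraries. Mobp had 9699, 6076 and 5884 in CTL-WT and 5650.2, 6703 and 4537 in SD-WT (log2 fold change -0.34, standard error 0.18, adjusted p = 0.211). Ermn had 1604, 1263 and 1340.0 in CTL-WT and 1605, 1784 and 1212 in SD-WT (log2 fold change 0.12, standard error 0.14, adjusted p = 0.578). The groups overlapped for all of these genes. The same 6 members were called whichever of the 6 libraries was omitted, by edgeR (26.3% of all genes) and DESeq2 (34.3%) on recovered reads, and after thinning to the smallest total.

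**Figure D1:**
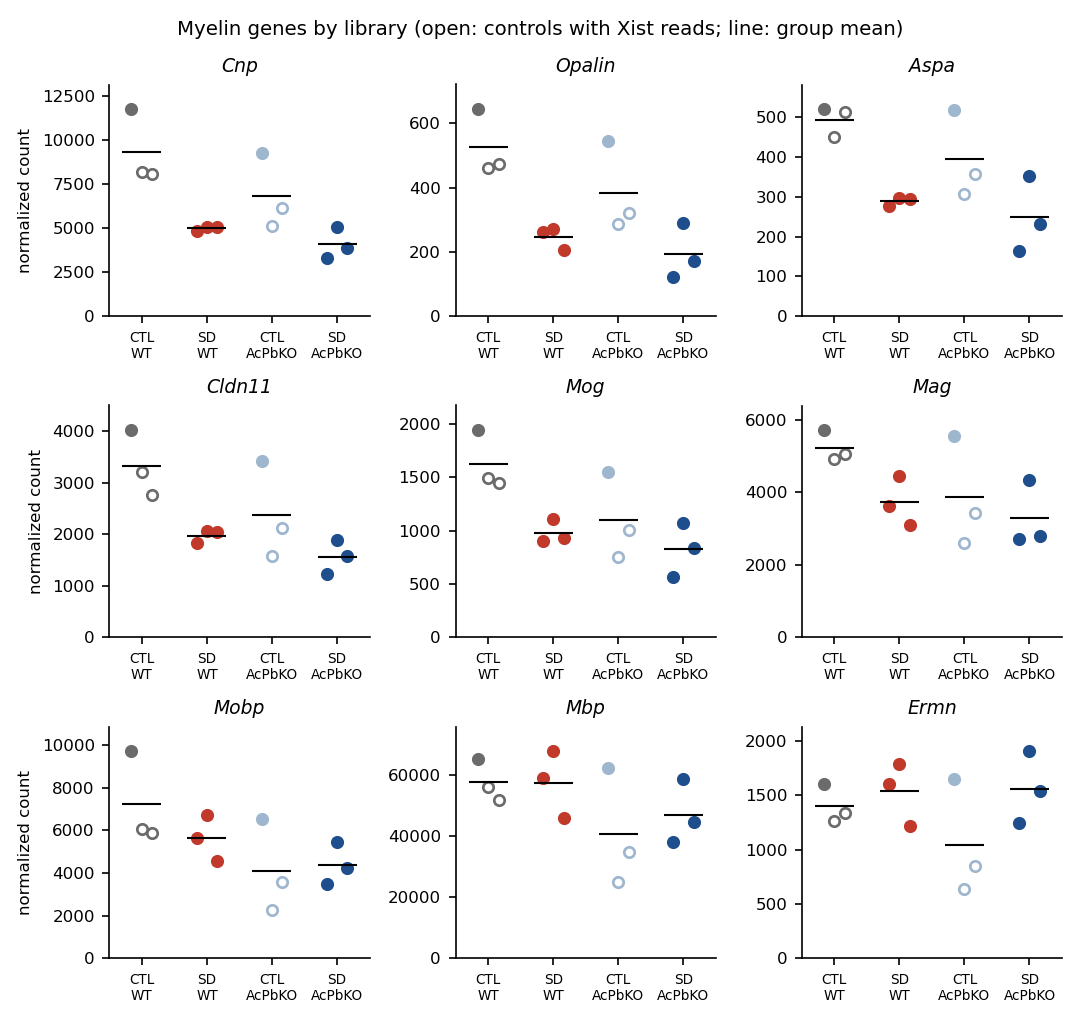
Normalized counts of the 9 members (y axes, linear, from 0) in each of the 12 libraries by group (x axes); points are libraries, open points the 4 controls with Xist reads, and lines group means, n = 3. Cnp, Opalin, Aspa, Cldn11, Mog and Mag lie lower in all SD-WT than in all CTL-WT libraries, and the CTL-AcPbKO libraries are widely spread, with replicate 03 highest for all 9 members.

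In AcPb-/- mice, 2 of the 9 members were downregulated with SD, Cnp and Opalin, beside 27.4% of the 20574 genes tested in either direction, 13.3% lower and 14.1% higher. Replicates stand in the order 03, 04 and 05 for CTL-AcPbKO and 02, 03 and 04 for SD-AcPbKO. Cnp had 9226, 5115 and 6148 normalized counts in CTL-AcPbKO and 3306, 5062 and 3866 in SD-AcPbKO (log2 fold change -0.72, standard error 0.21, adjusted p = 0.0375). Opalin had 544, 288 and 319.8 in CTL-AcPbKO and 121, 289 and 173 in SD-AcPbKO (log2 fold change -1.01, standard error 0.33, adjusted p = 0.0495). Cnp was the only member with no overlap between these groups, against 20.7% of all genes tested that were lower with no overlap. In each comparison, overlap was judged for the members on counts normalized over 12 libraries, and for all genes on the deposited 2-group counts. For Opalin, SD-AcPbKO replicate 03 lay just above the lowest control.

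Aspa had 518, 305 and 358 normalized counts in CTL-AcPbKO and 163, 351 and 231 in SD-AcPbKO (log2 fold change -0.69, standard error 0.28, adjusted p = 0.101). Cldn11 had 3429.7, 1577 and 2131 and 1220.4, 1893 and 1582 (log2 fold change -0.55, standard error 0.26, adjusted p = 0.155). Mog had 1549.8, 749 and 1005 and 568, 1073 and 840.0 (log2 fold change -0.39, standard error 0.28, adjusted p = 0.349). These changes had the sign seen in WT mice but did not pass the threshold, and the groups overlapped. Mag had 5557, 2601 and 3416 in CTL-AcPbKO and 2703, 4328 and 2804 in SD-AcPbKO (log2 fold change -0.19, standard error 0.27, adjusted p = 0.641).

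Mbp had 62449, 25097 and 35004 normalized counts in CTL-AcPbKO and 38032, 58745 and 44649 in SD-AcPbKO (log2 fold change 0.29, standard error 0.30, adjusted p = 0.52). Mobp had 6514, 2262 and 3564 and 3494, 5453 and 4223 (log2 fold change 0.21, standard error 0.33, adjusted p = 0.683). Ermn had 1650.3, 641 and 848 and 1239.7, 1903 and 1536 (log2 fold change 0.67, standard error 0.30, adjusted p = 0.139). For these genes CTL-AcPbKO replicate 03 lay above every SD library or, for Ermn, between them, and the other controls lay mostly below. Standard errors of the members were 0.21 to 0.33 here, against 0.097 to 0.18 in WT mice.

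The calls in AcPb-/- mice depended on single libraries. Of the members, 0 passed in limma without CTL-AcPbKO replicate 05, SD-AcPbKO replicate 02 or SD-AcPbKO replicate 04, 1 (Cnp) without CTL-AcPbKO replicate 04, and 3 (Aspa, Cnp and Opalin) without SD-AcPbKO replicate 03. Over all genes, 2157 were higher and 1969 lower of 20469 without CTL-AcPbKO replicate 05. The counts were 1702 and 1691 of 20416 without SD-AcPbKO replicate 02, and 1814 and 1761 of 20336 without SD-AcPbKO replicate 04. They were 1761 and 1656 of 20508 without CTL-AcPbKO replicate 04, and 2783 and 2629 of 20374 without SD-AcPbKO replicate 03. With all libraries they were 2892 and 2741 of 20574, so fewer genes passed in each of these fits. Without CTL-AcPbKO replicate 03, Ermn and Mbp were past the threshold as higher with SD, with log2 fold changes of 1.06 (adjusted p = 0.0047) and 0.65 (adjusted p = 0.0386), and Cnp was at -0.48 (adjusted p = 0.0594). In that fit 26.1% of all genes passed. With all libraries, DESeq2 called 1 member, Aspa (35.9% of all genes), and edgeR called Cnp and Opalin (27.6%).

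**Figure D2:**
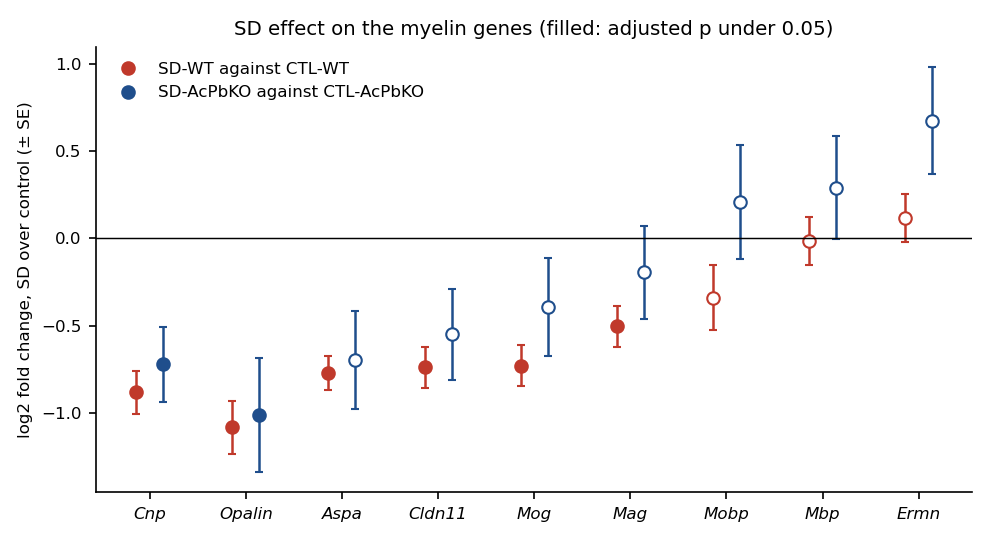
Log2 fold change of each member with SD (y axis, ± standard error, n = 3 libraries a group), in WT mice (red) and AcPb-/- mice (blue), filled where the limma adjusted p was under 0.05. The genes run from Cnp and Opalin, filled in both genotypes, to Mobp, Mbp and Ermn, open in both.

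To ask whether the SD effect depended on genotype, the difference of the 2 SD effects was tested in limma over 12 libraries (20978 genes). Of the members, 0 of 9 passed the threshold, beside 0% of all genes tested. At an unadjusted p under 0.05 there were also 0 members, and 839 genes, and edgeR (0% of genes) and DESeq2 (0.00477%) called 0 members. The interaction, SD effect in AcPb-/- minus that in WT on the log2 scale, was 0.066 for Opalin, 0.071 for Aspa, 0.16 for Cnp and 0.18 for Cldn11, with standard errors of 0.29 to 0.41. It was 0.54 for Mobp and 0.55 for Ermn (standard errors 0.44 and 0.39). With errors of this size, a difference between the genotypes was not detectable at the size seen here.

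Averaged over the genotypes in the same fit, 5 of the 9 members were downregulated with SD, where 41.5% of all genes tested passed in either direction, 20.3% lower and 21.2% higher. They were Opalin (log2 fold change -1.05, standard error 0.20, adjusted p = 0.00116), Cnp (log2 fold change -0.80, standard error 0.14, adjusted p = 0.000626), Aspa (log2 fold change -0.73, standard error 0.17, adjusted p = 0.00303), Cldn11 (log2 fold change -0.64, standard error 0.16, adjusted p = 0.00668) and Mog (log2 fold change -0.56, standard error 0.18, adjusted p = 0.0206). Mag did not pass, at -0.35 (adjusted p = 0.119), nor did Mobp at -0.066 (adjusted p = 0.84), Mbp at 0.14 (adjusted p = 0.607) or Ermn at 0.39 (adjusted p = 0.124). This average was added after the values were seen. Opalin, Cnp, Aspa and Cldn11 passed whichever of the 12 libraries was omitted. Mog was lost without CTL-WT replicate 01 or SD-AcPbKO replicate 02, Mag passed as lower without CTL-AcPbKO replicate 04 or SD-AcPbKO replicate 03, and Ermn as higher without CTL-AcPbKO replicate 03 (0.59).

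A term for the 4 control libraries with Xist reads made the falls larger. The 2 controls without Xist, CTL-WT replicate 01 and CTL-AcPbKO replicate 03, were the highest of their groups for all 9 members. With the term, 7 members were downregulated in WT mice (beside 19.3% of all genes), the 6 named above and Mobp, and 5 in AcPb-/- mice (beside 24.7%), namely Cnp, Opalin, Aspa, Cldn11 and Mog. The median over the members was -1.02 in WT and -0.81 in AcPb-/- mice. With the 4 libraries left out, 1 control remained in each genotype, assumed to vary like the other groups. Then 1 member, Cnp, passed in WT mice (-1.24, beside 3.27% of all genes) and 2, Cnp (-1.20) and Cldn11 (-1.15), in AcPb-/- mice (beside 10% of all genes), and the medians were -0.84 and -0.95. For the average of both genotypes, 7 members passed with the term (30.8% of all genes). Its fold changes are by design those of the fit without the 4 libraries, so the 2 fits are not separate checks. In WT mice Ermn, with a positive change above, had a negative one with the term and without the 4 libraries (-0.37 and -0.083).

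Within the AcPb-/- groups, the members had the same highest and the same lowest library. CTL-AcPbKO replicate 03 was the highest and replicate 04 the lowest library of its group for all 9 members, with a median of 2.14-fold from lowest to highest and 2.88-fold for Mobp. SD-AcPbKO replicate 03 was the highest and replicate 02 the lowest of its group for all 9, with a median of 1.56-fold. CTL-WT replicate 01 was highest for 9 and SD-WT replicate 02 for 8 members, with medians of 1.34-fold and 1.31-fold from lowest to highest. The lowest library was split in WT mice, between CTL-WT replicates 03 (5 members) and 02 (4 members) and between SD-WT replicates 04 (5 members) and 01 (4 members), and SD-WT replicate 04 was the highest for Cnp. The standard deviation between libraries of a group, pooled over the groups, was 0.31 to 0.48 on the log2 scale for the level of a member (median 0.38). For its level relative to the mean of the other 8 members it was 0.089 to 0.19 (median 0.13).

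Markers of neighbouring tissue are given beside this spread. The summed level of 10 deep-layer neuron markers was 14903, 8385 and 6953 normalized counts in CTL-AcPbKO replicates 03, 04 and 05. The summed level of 8 upper-layer markers was 54504, 74291 and 78987 in the same libraries. Replicate 03, the highest for the members, was thus the highest for deep-layer and the lowest for upper-layer markers. In CTL-WT the summed level of 12 striatal neuron markers was 26727, 18763 and 12814 in replicates 01, 02 and 03, and that of the deep-layer markers 11266, 10750 and 9917. CTL-WT replicate 01 was thus also the highest for these markers. In SD-WT the deep-layer sum was 10263, 11872 and 11706 in replicates 01, 02 and 04, highest in replicate 02, the highest library for 8 members. In SD-AcPbKO it was 11398, 13162 and 15622 in replicates 02, 03 and 04, so that the highest library was not the one highest for the members. The part of tissue composition in the results for the members was not tested.

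Pairs of members were also compared within each library, where a factor shared by both cancels. The ratio of Mbp to Cnp, as log2, was 2.48, 2.78 and 2.68 in CTL-WT and 3.62, 3.75 and 3.17 in SD-WT. It was 2.76, 2.29 and 2.51 in CTL-AcPbKO and 3.52, 3.54 and 3.53 in SD-AcPbKO. All 6 SD libraries thus lay above all 6 controls, and the mean ratio was 1.92-fold higher with SD (exact two-sided permutation test of SD and control within genotype, 400 arrangements, p = 0.005, the smallest it can give). All 36 pairs of members were compared in this way, after the values had been seen, and 29 passed an adjusted p of 0.05 over the 36 pairs. The pairs reuse the levels of the same members, so they are independent neither of each other nor of the fold changes above. Pairs of other genes were not compared, so the counts of pairs have no share over all genes beside them.

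In 16 of the 36 pairs the 6 SD libraries and the 6 controls did not overlap, a count that likewise has no share over other pairs beside it. The widest shift was that of Ermn to Opalin, with log2 ratios of 1.32, 1.46 and 1.50 in CTL-WT and 2.61, 2.72 and 2.55 in SD-WT. The same ratio was 1.60, 1.16 and 1.41 in CTL-AcPbKO and 3.36, 2.72 and 3.15 in SD-AcPbKO, a 2.72-fold higher mean ratio with SD (exact permutation p = 0.005, adjusted p = 0.01). Ermn thus gained on Opalin in both genotypes. The ratio of Mbp to Mog was 1.62-fold, that of Mbp to Cldn11 1.72-fold and that of Mbp to Opalin 2.28-fold higher with SD (exact permutation p = 0.005 and adjusted p = 0.01 for each).

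The ratios that moved least were between members that fell with SD. Aspa to Cnp differed by 0.065 on the log2 scale (exact permutation p = 0.54, adjusted p = 0.54), Cldn11 to Aspa by 0.090 (exact permutation adjusted p = 0.458) and Mog to Cldn11 by 0.083 (exact permutation adjusted p = 0.233). The 7 pairs that did not pass were these, Mog to Aspa, Mag to Mog, Cnp to Opalin and Mobp to Mag. Relative to Mag, Mbp gained 1.40-fold with SD and Ermn 1.68-fold, with no overlap between SD and control libraries. Without the 4 controls with Xist reads, 1 control was left in each genotype and no test was made. The mean ratio was then 1.87-fold higher with SD for Mbp to Cnp, 2.62-fold for Ermn to Opalin and 1.32-fold for Mbp to Mag. The 29 pairs that had passed had differences of the same sign in both genotypes. In 24 of them the difference moved by less than the standard deviation within groups. Among the rest, Mobp to Aspa moved from 0.67 to 0.29 and Mbp to Mobp from 0.20 to 0.38 on the log2 scale. Of the 7 pairs that had not passed, Cldn11 to Aspa changed sign, at -0.10 on the log2 scale.

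**Figure D3:**
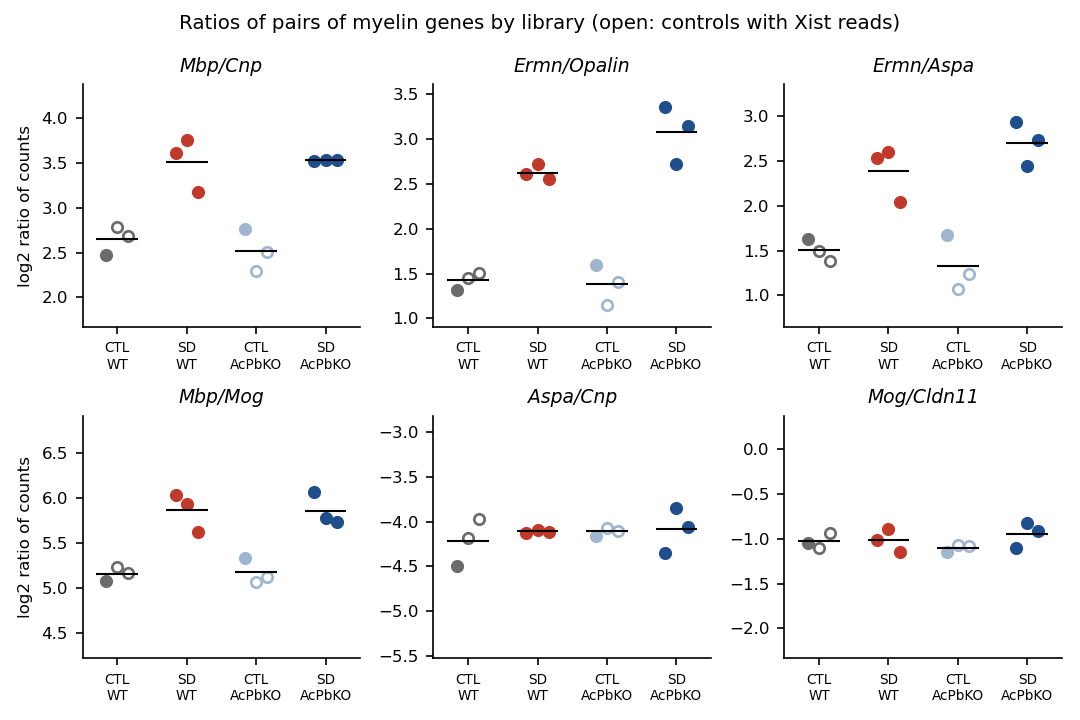
Log2 ratio of the normalized counts of pairs of members (y axes, each spanning 2.7 log2 units) in each library by group (x axes); open points are the 4 controls with Xist reads and lines are group means, n = 3. Mbp to Cnp, Ermn to Opalin, Ermn to Aspa and Mbp to Mog lie higher in all 6 SD libraries than in all 6 controls, while Aspa to Cnp and Mog to Cldn11 overlap.

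Between genotypes, 0 of the 9 members passed the threshold in undisturbed mice (limma, CTL-AcPbKO against CTL-WT), beside 0.0197% of the 20273 genes tested. At an unadjusted p under 0.05 there were 4 members and 1730 of all genes, and edgeR (0.0395% of genes) and DESeq2 (0.569%) called 0. All 9 members were lower in the CTL-AcPbKO means, with log2 fold changes from -0.91 for Mobp (standard error 0.33, adjusted p = 0.489) to -0.36 for Aspa (standard error 0.17, adjusted p = 0.621). The groups overlapped for all 9, against 7.04% of genes that were lower and 7.35% that were higher with no overlap. Mean normalized counts of Mbp were 40849.9 ± 19349.7 in CTL-AcPbKO and 57698 ± 6905 in CTL-WT. This comparison rested on CTL-AcPbKO replicate 03. Without it, 7 members (Cldn11, Ermn, Mag, Mbp, Mobp, Mog and Opalin) passed as lower, with Mobp at -1.31 and Mbp at -0.96, beside 0.836% of all genes (48 higher and 120 lower of 20103). Both libraries left in that group were among those with Xist reads.

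After SD, 0 of the 9 members passed the test between genotypes (limma, SD-AcPbKO against SD-WT), beside 0.0145% of the 20621 genes tested. There were 2 members and 1265 of all genes at an unadjusted p under 0.05, and edgeR (0.0436% of genes) and DESeq2 (0.532%) called 0. Log2 fold changes were between -0.43 for Opalin (adjusted p = 0.884) and 0.020 for Ermn (adjusted p = 0.996), and the ranges overlapped for all 9, against 6.01% of genes lower and 5.35% higher with no overlap. Mean normalized counts of Cnp were 4078 ± 897 in SD-AcPbKO and 4982 ± 134 in SD-WT.

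The tables also hold SD-AcPbKO against CTL-WT, which differs in both genotype and treatment and shares libraries with the other comparisons. Here 7 of the 9 members were downregulated, beside 27.7% of the 20560 genes tested in either direction, 13.6% lower and 14.1% higher. Opalin (log2 fold change -1.51, standard error 0.27, adjusted p = 0.00326) and Cnp (log2 fold change -1.19, standard error 0.17, adjusted p = 0.00119) were again the lowest. Cldn11 had a log2 fold change of -1.09, Aspa of -1.05 and Mog of -1.01 (adjusted p = 0.00147, 0.00783 and 0.00526). Mag and Mobp were both at -0.70 (adjusted p = 0.00856 and 0.025). Mbp was at -0.31 (adjusted p = 0.156) and Ermn at 0.14 (adjusted p = 0.518), and neither passed. The 7 members called did not overlap between the groups, against 20.8% of genes that were lower with no overlap. The count was 5 to 8 with 1 library left out, 8 with the Xist term (22.3% of all genes) and 2, Cldn11 and Cnp, without the libraries with Xist reads (6.35%).

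Other genes of the lineage were taken from 5 lists, 70 genes in all. In WT mice 16 were downregulated and 3 upregulated with SD, against 12.2% and 13.2% of all genes tested, with a median log2 fold change of -0.17. Of 30 other myelin proteins, 9 fell (Car2, Gjc3, Gpr37, Gsn, Pllp, Ppp1r14a and Tspan2 among them) and 1 rose (Apod). Ppp1r14a, a phosphatase inhibitor, was at -0.94 (adjusted p = 0.00583). Anln, a septin-associated scaffold, was at 0.46 (adjusted p = 0.0609) and did not pass.

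Of 10 enzymes of myelin lipids, Elovl7, Gal3st1 and Ugt8a fell and 0 rose in WT mice. Of 10 transcription factors, Nkx6-2 and Olig1 fell, and Myrf, the factor whose motif was searched above, was at -0.011 (adjusted p = 0.97), with 1756 ± 410.1 normalized counts in SD-WT and 1758 ± 367 in CTL-WT. Of 10 genes of newly formed oligodendrocytes, Rras2 fell and Tnr, an extracellular matrix glycoprotein, rose, at 0.41 (adjusted p = 0.0341). Of 10 genes of oligodendrocyte precursors, Matn4, a matrix protein, fell, at -0.66 (adjusted p = 0.0119) and Tmem100 rose, at 0.59 (adjusted p = 0.00464). The medians of these lists were -0.30 for the lipid enzymes, -0.043 for the transcription factors, 0.088 for newly formed cells and 0.019 for precursors, against -0.73 for the members. With the Xist term, 13 of the other myelin proteins and 6 of the lipid enzymes fell. Without the 4 libraries 1 control is left in WT mice, and genes of the lists passing there are not counted. Over all genes, 1829 of 20978 were lower and 2228 higher with the Xist term. Tnr was at 0.19 with the Xist term and did not pass. With 1 library left out, 6 to 10 of the other myelin proteins fell and 0 to 5 rose.

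In AcPb-/- mice 5 of the 70 genes fell and 5 rose, with a median of -0.015, and these shares were below the 13.3% lower and 14.1% higher over all genes tested. With the Xist term 14 fell and 1, Tmem100, rose. Without the 4 libraries 1 control is left, and genes passing in that fit are not counted here. Among the other myelin proteins, Gsn fell and Apod rose, and Gal3st1, the sulfotransferase that makes sulfatide, fell, at -0.70 (adjusted p = 0.0255). Myrf was at 0.41 (adjusted p = 0.329), Hapln2 at 0.82 (adjusted p = 0.118) and Anln at 0.93 (adjusted p = 0.091). Bcas1, a marker of newly formed oligodendrocytes, rose, at 0.74 (adjusted p = 0.0488), as did Tnr, and Olig1 and Rras2 fell. Bcas1 was at 0.41 with the Xist term, and neither Bcas1 nor Tnr passed in that fit. Over all genes in the fit with the Xist term, 2434 of 20978 were lower and 2755 higher. Matn4 fell, at -0.79 (adjusted p = 0.00502), and Tmem100 and Vcan rose. Between genotypes and in the interaction, 0 of the 70 genes passed in limma, edgeR or DESeq2, and at an unadjusted p under 0.05 in limma there were 10 in controls, 3 after SD and 0 in the interaction. There Myrf was at -0.38 (adjusted p = 0.713) in controls and 0.030 (adjusted p = 0.988) after SD.

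In the comparison of undisturbed mice, the lowest of these genes were Mal at -0.75 (adjusted p = 0.479), Bcas1 at -0.71 (adjusted p = 0.44) and Trf at -0.58 (adjusted p = 0.588), and the highest C1ql1 at 0.28 (adjusted p = 0.665), Bmp4 at 0.12 (adjusted p = 0.853) and Olig2 at 0.11 (adjusted p = 0.789). After SD they were Tmem125 at -0.41 (adjusted p = 0.824), Enpp6 at -0.34 (adjusted p = 0.886) and Bcas1 at -0.32 (adjusted p = 0.872), and Nkx2-2 at 0.26 (adjusted p = 0.892), Enpp2 at 0.24 (adjusted p = 0.917) and St18 at 0.22 (adjusted p = 0.9). In SD-AcPbKO against CTL-WT, 17 of the 70 genes fell and 5 rose, against 13.6% lower and 14.1% higher over all genes tested, with Matn4 at -0.79 (adjusted p = 0.00219). Also lower were Cd9, Gjc3, Gpr37, Gsn, Pllp, Tspan2, Adamts4, Elovl7, Gal3st1, Ugt8a, Enpp6, Rras2, Olig1 and Sox10, and higher were Anln at 0.58 (adjusted p = 0.0282), Tmem100 at 0.53 (adjusted p = 0.00221), Apod, Tnr and Olig2. With the Xist term 28 fell and 1, Tmem100, rose, and Anln was at -0.028 (adjusted p = 0.961). The fit without the 4 libraries leaves 1 control, and genes passing there are not counted. Over all genes, 2252 of 20978 were lower and 2432 higher with the Xist term. Without CTL-WT replicate 02 or 03 or SD-AcPbKO replicate 03 or 04, Anln did not pass either, with an adjusted p of at most 0.0987. Ppp1r14a at -0.93 (adjusted p = 0.0545), St18 at 0.40 (adjusted p = 0.0699) and Myrf at 0.021 (adjusted p = 0.935) did not pass.

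Averaged over the genotypes, 13 of the 70 genes fell with SD and 9 rose, and both shares were below the 20.3% lower and 21.2% higher over all genes in that fit. With the Xist term 27 fell and 3 rose. Genes passing without the 4 libraries are not counted here either. Those that fell included Matn4 at -0.73 (adjusted p = 0.000229), Ppp1r14a at -0.71 (adjusted p = 0.0277), Cd9, Gpr37, Gsn, Pllp, Tspan2, Elovl7, Gal3st1, Neu4, Rras2 and Olig1. Those that rose were Anln at 0.69 (adjusted p = 0.0278), Tmem100 at 0.55 (adjusted p = 8.79e-05), Bcas1 at 0.54 (adjusted p = 0.0188), Apod, Cryab, Tnr, Ptprz1, Vcan and Olig2. With the Xist term Anln was at 0.087 and Bcas1 at 0.22, and neither passed. Over all genes in the fit with the Xist term, 3090 of 20978 were lower and 3361 higher. Myrf was at 0.20 (adjusted p = 0.462). For the interaction the lowest of these genes were C1ql1 at -0.22 (adjusted p = 0.986), Neu4 at -0.18 (adjusted p = 0.986) and Matn4 at -0.13 (adjusted p = 0.986), and the highest Gjb1 at 0.64 (adjusted p = 0.986), Hapln2 at 0.62 (adjusted p = 0.986) and St18 at 0.55 (adjusted p = 0.986).

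**Figure D4:**
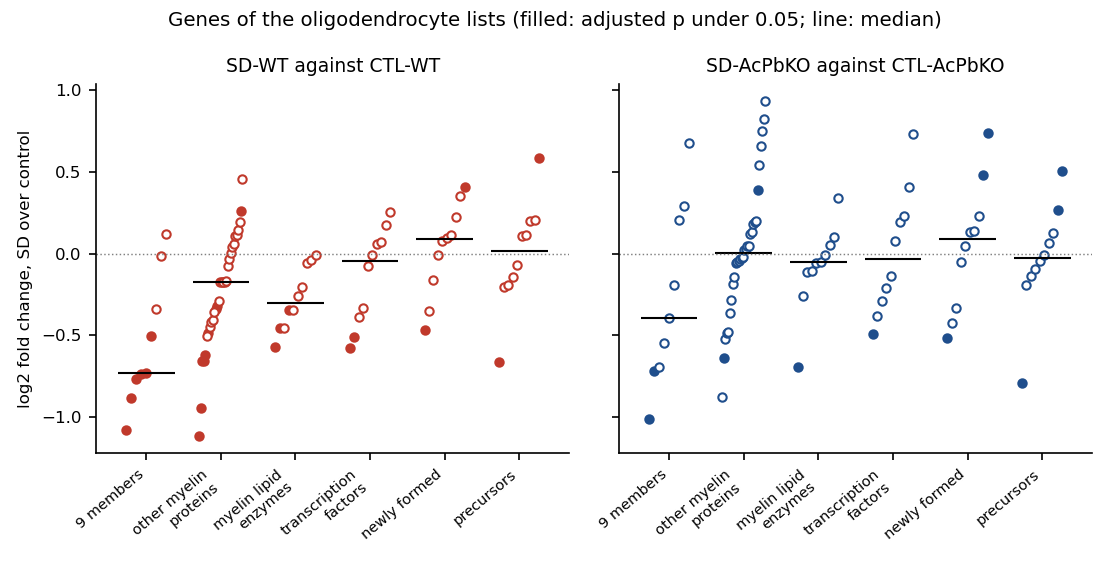
Log2 fold change with SD (y axis) of the 9 members and of the genes of 5 oligodendrocyte lists (x axis), in WT mice (left) and AcPb-/- mice (right); each point is a gene, filled where the limma adjusted p was under 0.05, and lines are list medians. The median of the members, -0.73 in WT and -0.39 in AcPb-/- mice, lies below those of the other lists, from -0.30 to 0.088 and from -0.053 to 0.088.

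Lists of other cells were counted in the same way. Over all genes tested, 12.2% were lower and 13.2% higher with SD in WT mice, and 13.3% and 14.1% in AcPb-/- mice. With lists this short, counts of 1 or 2 genes are near these shares. Of 7 Schwann cell genes, Pmp2, a protein of peripheral myelin, had at most 1.41 normalized counts in any library, and 1 gene, Drp2, fell in both genotypes. The summed level of the 7 genes was 7228 to 9794 in the controls and 6574 to 7453 with SD. Of 12 striatal neuron markers, 4 fell in WT and 0 in AcPb-/- mice. Of 10 microglial markers, 2 fell and 1 rose in WT mice and 4 fell in AcPb-/- mice. Of 10 astrocyte markers, 2 fell and 1 rose in WT mice and 1 fell and 1 rose in AcPb-/- mice. Of 10 neuronal markers, 2 rose in WT and 4 in AcPb-/- mice and 0 fell. Of 10 endothelial markers, 4 rose and 2 fell in WT and 3 rose and 2 fell in AcPb-/- mice. Of 10 deep-layer markers 2 rose and 1 fell in WT and 2 rose in AcPb-/- mice, and of 8 upper-layer markers 1 rose and 3 fell in WT and 2 fell in AcPb-/- mice. Of 8 choroid plexus markers 1 rose in WT and 0 in AcPb-/- mice, and only 1 of 5 red blood cell genes had a read. Drp2 did not pass with the Xist term, 6 striatal neuron markers fell in WT mice, and 0 deep-layer markers rose in either genotype. Over all genes, 1829 of 20978 were lower with that term in WT mice. Without the 4 libraries 1 control is left in each genotype, and genes of these lists passing there are not counted. The parts of these cells in the results for the members were not tested.

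Log2 fold changes with SD varied with base composition over the genes with a mean of at least 100 normalized counts. In WT mice the median was 0.052 in the fifth of genes with the lowest GC content and -0.11 in that with the highest, and in AcPb-/- mice 0.13 and -0.18. The GC content of the members was 38.02% for Ermn, 38.5% for Aspa, 45.8% for Opalin, 50% for Mog, 50.9% for Cldn11, 51.03% for Mbp, 53.3% for Mobp, 54.8% for Cnp and 57.6% for Mag. After the trends with GC content and transcript length were removed from each library, the same 6 members were past the threshold in WT mice and the same 2 in AcPb-/- mice.

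Of the genes outside the members with a mean of at least 100 normalized counts, those whose profile over the 12 libraries was most like the mean profile of the members included Gjc3, Ugt8a, Prr18, Evi2a, Phldb1, Tspan2 and Tmem88b. Likeness was the mean absolute difference of standardized log2 levels over the 12 libraries, from 0.115 for Gjc3 to 0.247 for Tmem88b, among 13121 genes. Of the members, Mag was the most like their mean (0.166, rank 3 of 13121) and Ermn the least (0.855, rank 2880), and Mbp had rank 240. These ranks include each member in the mean, and depth differed with SD over these libraries.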

How the data were processed

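The authors sequenced mRNA libraries (TruSeq Stranded mRNA) and, per the submitters' processing notes, used bcl2fastq, HISAT2 2.2.1 with genome mm10, and DESeq2 1.31.16. The notes name featureCounts as the counter and the study's methods HTSeq. The 5 deposited tables, each comparing 2 groups, hold normalized counts (signal) divided by DESeq2 size factors. They also hold the authors' log2 fold changes, standard errors, test statistics (score) and p-values, which were not used. Reads were recovered from the deposited values by size factor (732630 of 732630 values whole within 0.01) and normalized over 12 libraries for values by library. Because normalized values and not raw counts were deposited, limma 3.58.1 (R 4.3.3) with a variance trend was fitted to log2(normalized count + 1). The fits took genes with a read, 2 groups at a time (4 residual degrees of freedom), with Benjamini-Hochberg adjustment. They were tried on counts simulated with the same low dispersion for every gene, which does not show how they perform at the spread of these libraries. Interaction and average used all 12 libraries. Alternatives were edgeR 4.0.16, DESeq2 1.42.0, pseudocounts of 0.1 and 10, a mean of at least 10, TMM, no variance trend, one fit of 4 groups, an Xist term, thinning, an adjusted p under 0.01, a replicate block and leaving out libraries one at a time. Chosen after seeing the data were removal of GC and length trends, leaving out the libraries with Xist, the average and the ratios. Exact permutations, recovery and figures used Python 3.11.15, NumPy 2.4.6, pandas 2.3.3 and matplotlib 3.10.9.

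The members and lists were chosen with earlier results of these data known. Named by rule were all members, Myrf and the 3 highest and 3 lowest genes of the oligodendrocyte lists with a mean of at least 100 in a comparison, other genes of the lists where called, and the 8 genes most like the members. Some genes that the rule names are not reported here. Depth was 26504840 to 71857505 reads a library, and intervals beyond the spread between libraries were not computed.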

Additional observations from a re-analysis of the deposited data

How the results depend on the processing

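Values are log2 fold changes unless called counts of members past the threshold. In WT mice the count of 6 became 0 with a replicate block, a fit in which 0 of the 20417 genes tested passed. Without the 4 libraries with Xist reads 1 control is left, so only changes are given for that fit. Mag was also lost with no variance trend (adjusted p = 0.087), in one fit of 4 groups (adjusted p = 0.152) and at an adjusted p under 0.01. Mbp moved to 0.0017 in edgeR and 0.068 with the replicate block, and Ermn to -0.37 with the Xist term and -0.083 without these libraries. With 1 library left out, Mbp ranged from -0.14 to 0.14 and Ermn from -0.0023 to 0.28. In AcPb-/- mice the count of 2 became 1 with a pseudocount of 0.1, TMM size factors, DESeq2 or thinning. It became 0 with a pseudocount of 10, no variance trend, the replicate block or an adjusted p under 0.01. It was 5 with the Xist term, and 0 to 3 with 1 library left out. Over all 20574 genes, 1785 were higher and 1823 lower with no variance trend, and 2824 and 2688 with a pseudocount of 10. They were 2895 and 2708 with a pseudocount of 0.1, and 2900 and 2731 with TMM. The replicate block gave 0 of either, and 2656 genes passed at 0.01. Thinning gave 2578 and 2542 of 20108 genes. The median of the members moved to -0.81 with the Xist term and -0.95 without its libraries, Mbp to -0.16 and -0.43, and Mobp to -0.43 and -0.59. Ermn moved to -0.10 without them, and Mag to 0.0092 with GC and length trends removed. With 1 library left out, Mag ranged from -0.44 to 0.11, Mbp from -0.0085 to 0.65 and Mobp from -0.16 to 0.61. The cause was not tested.

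Between genotypes in controls the count ranged from 0 to 7 with 1 library left out, and Ermn moved to 0.041 without the Xist libraries. After SD, Ermn moved to -0.0021 with trends removed and -0.093 with the replicate block, and ranged from -0.14 to 0.18 with 1 library left out. For SD-AcPbKO against CTL-WT the count of 7 became 3 with no variance trend (1700 genes higher and 1701 lower of 20560). It became 0 with the replicate block, where 0 of all genes passed. Ermn moved to -0.35 with the Xist term and -0.062 without its libraries (-0.014 to 0.29 with 1 library left out). For the interaction without the Xist libraries the median was -0.13, Mbp -0.23, Mag -0.16, Cldn11 -0.13, Ermn -0.020, Opalin -0.19 and Aspa -0.28. With the replicate block Mbp was -0.0033, Opalin -0.17 and Aspa -0.028. With 1 library left out Cnp ranged from -0.028 to 0.40, Opalin from -0.26 to 0.36, Cldn11 from -0.074 to 0.49 and Aspa from -0.21 to 0.34. For the average of both genotypes, the median was -0.97, Mbp -0.31 and Ermn -0.093 with the Xist term. Without its libraries the values are the same by design. Both fits set the SD libraries against CTL-WT replicate 01 and CTL-AcPbKO replicate 03 alone, so neither checks the other. With the replicate block the count was 3, beside 3983 genes higher and 3769 lower of 20978, and Mobp was at 0.037. With 1 library left out Mobp ranged from -0.25 to 0.13 and Mbp from -0.012 to 0.32.

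The groups share replicate numbers for 2 libraries at most, and deviations of same-numbered libraries correlated between -0.60 and 0.36. Differently numbered libraries correlated between -0.60 and 0.68, so these values do not show whether the numbers pair the samples. The block leaves few degrees of freedom. In the block fit 0 members and 0 of all genes passed between genotypes after SD and in the interaction. Undisturbed mice of the genotypes share too few numbers for a block. Fits without the 4 Xist libraries hold 1 control a genotype. SD libraries were deeper than controls, and thinning kept the 6 calls in WT mice. With 3 libraries a group, members near the threshold in AcPb-/- mice could be moved across it by 1 library.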

Other observations

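SD-AcPbKO replicate 04 stood apart in choroid plexus genes. The summed level of 8 choroid plexus markers was 18225 normalized counts there and 273 to 608 in the other 11 libraries. Ttr alone had 16186 normalized counts there and at most 283 elsewhere. Enpp2, which was listed among the lipid enzymes and is also made by choroid plexus, had 20591 normalized counts in this library and 9809 to 13142 in the others. The 9 members were not highest there, and SD-AcPbKO replicate 03 was the highest of its group for all 9.

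Precursor genes did not share the spread of the mature genes. In CTL-AcPbKO, where the summed level of the 9 members was 2.37-fold higher in the highest than in the lowest library, the summed level of 10 oligodendrocyte precursor genes differed by 1.02-fold, from 20495 to 20832 normalized counts. Pdgfra, the growth factor receptor of precursors, had 2504 to 3201 normalized counts over all 12 libraries.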
